A study of Pimephales promelas with 51 samples.

Results

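Dexamethasone, a synthetic glucocorticoid, was given to fathead minnow larvae at 8 concentrations, and the account below concerns how genes followed the concentration among the treated larvae alone. It rests on 24 of the series' 51 libraries, namely those whose column in the dexamethasone count table is labelled with dexamethasone, and DMSO libraries enter no test. The fathead minnow is a freshwater fish that laboratories keep for ecotoxicology. The larvae were of the strain GLTED-Duluth-wt, aged 5 to 6 days after fertilization, of undetermined sex, and stood in unrenewed exposure water for 24 h. Each concentration had 3 libraries, named A, B and C, prepared from the 3′ ends of messenger RNA in pooled homogenates of whole bodies. Groups are called by the rounded nominal concentrations of their titles, 0.008, 0.025, 0.08, 0.25, 0.8, 2.5, 8 and 25 µM, and the measured concentrations were 0.0066, 0.0189, 0.055, 0.1784, 0.5259, 2.03, 6.5817 and 23.6726 µM. The 3 DMSO libraries of the series, handled with the same strain, age and exposure time, are quoted only as a level. Nothing in the labels says whether the pools were independent, and a p-value below speaks of variation among libraries, part of which may be technical.

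Glucocorticoids bind the glucocorticoid receptor, a transcription factor that waits in the cytoplasm in a complex with chaperones and moves to the nucleus once it has bound its ligand. There it raises genes such as fkbp5, a co-chaperone that lowers the receptor's affinity for hormone, and genes of glucose, amino acid and lipid metabolism, while cell division in many tissues slows. In fish the same receptor also serves salt balance and the stress response, with cortisol as the natural hormone.

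Reads assigned to genes numbered 1316614 to 2027874 per library, and 17958 of 36695 genes passed the filter on low counts. Of the 35 tissue markers looked up to check the whole-body label, 30 were in the table and 26 had reads in every library, among them muscle actc1b, retinal rho, hepatic fabp10a and neuronal elavl3. The markers lyz of myeloid cells and hbae3 of erythrocytes were at 0 in every library, bone bglap had reads in 5 and cartilage acana in 14 libraries. The outside-gene share, the percentage of reads that fell outside counted genes, was 24.3 to 33.6% per library, and its group means from the lowest to the highest concentration were 26.5, 28.5, 28.6, 30.4, 30.4, 27.8, 27.8 and 25.8%. It was above 30% in 6 libraries: A at 0.025, 0.08, 0.8 and 8 µM, and A and B at 0.25 µM. Its group means were highest in the middle of the concentration range. Several results that rest on the middle concentrations are also given with this share as a covariate or without those 6 libraries.

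Across all 8 concentrations 387 genes followed the concentration, 2.16% of those tested, with 233 rising and 154 falling (edgeR quasi-likelihood test, adjusted p under 0.05). A slope is given throughout as the log2 change for each log10 unit of nominal concentration, with its standard error. To see the order in which genes began to move, the slope was tested in ranges that all started at 0.008 µM and took in 1 more concentration at a time. Up to 0.08 µM edgeR and DESeq2 called no gene, with 726 genes at an unadjusted p under 0.05 in edgeR and 12 called when the filter was dropped. The range up to 0.25 µM called 1 falling gene, 0.00557% of those tested. The range up to 0.8 µM called 47 genes (0.262%), with 31 rising (0.173%) and 16 falling (0.0891%). The next one, up to 2.5 µM, called 20 (0.111%), with 10 in each direction (0.0557%), and the one up to 8 µM 110 (0.613%), with 69 rising (0.384%) and 41 falling (0.228%). The fit of all group means up to 25 µM called 425 genes (2.37%), with 247 rising (1.38%) and 178 falling (0.991%). The ranges share libraries, so these counts are not independent of each other. The 25 µM group weighed heavily, and without it the slope over the remaining concentrations called 80 genes.

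**Figure D1:**
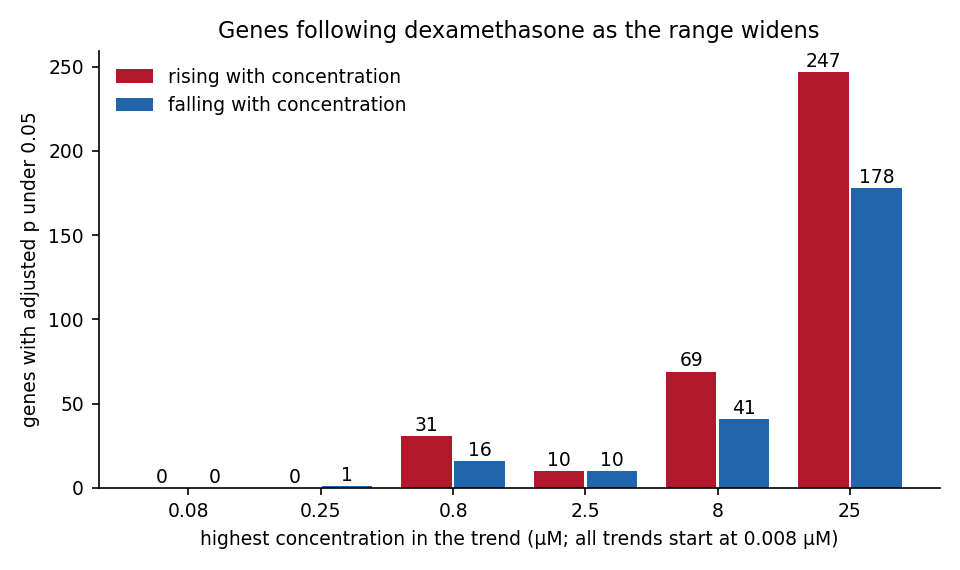
Genes with an adjusted p under 0.05 (edgeR), rising or falling with concentration, for trends that start at 0.008 µM and end at the concentration on the x axis. The bars reach 31 rising and 16 falling genes at 0.8 µM, drop to 10 and 10 at 2.5 µM, and reach 247 and 178 at 25 µM.

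The onset of a gene was taken as the lowest range that called it and from which every wider range called it too, with the same sign. An onset is thus where the test first held, and a gene may have begun to move at a lower concentration without passing it, since the narrow ranges rest on few libraries. By this rule no gene had an onset at 0.25 µM or below and 4 genes had one at 0.8 µM. A further 9 had their onset at 2.5 µM, and 91 and then 321 genes joined in the ranges that ended at 8 and 25 µM. Of the 4 earliest genes enpp2l rose and pcna, h2az2b and mfap2 fell. At 2.5 µM fkbp5, glulb, the entry labelled APY78_gr01 and the unnamed gene LOC120491271 rose, while cyp3a65, lgmn, actb1, LOC120479446 and LOC120491272 fell. At 8 µM 60 genes rose and 31 fell, and at 25 µM 182 rose and 139 fell. In 33 other settings, each of these 13 earliest genes kept an onset at or below 2.5 µM in 21 to 32 settings and had an onset at 8 or 25 µM in the rest. With the outside-gene share as a covariate 12 of the 13 kept it, and without the 6 libraries above 30% 11 did. APY78_gr01 had its onset at 8 µM in both of these settings. Leaving out library B at 0.008 µM moved all 13 to 8 µM or later. Without library A or library C at 2.5 µM, only fkbp5 and glulb kept an onset at or below 2.5 µM. Without library B at 2.5 µM, only fkbp5, glulb and h2az2b did.

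The autotaxin-like gene enpp2l, named after the enzyme that makes lysophosphatidic acid, was the only rising gene with an onset at 0.8 µM. It had 155, 126 and 84.2 CPM (read counts normalized by library size and TMM, here for libraries A, B and C) at 0.008 µM and 149.9, 181 and 218 CPM at 0.8 µM. At 25 µM its 3 libraries had 245, 239.8 and 203 CPM. The rise was spread over the range, with a slope of 0.28 ± 0.07 up to 0.8 µM (adjusted p = 0.0487, edgeR) and 0.26 ± 0.03 over all concentrations (adjusted p = 3.5e-07).

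The replication clamp gene pcna, which marks cells copying their DNA, had the lowest onset among the listed genes of replication and mitosis. In RNA of whole larvae, fewer cells of a kind and less of a transcript per cell cannot be told apart, here and below. Its libraries had 104, 121 and 100.2 CPM at 0.008 µM, 87.1, 66.1 and 88.1 CPM at 0.25 µM and 64.7, 71.4 and 50.3 CPM at 0.8 µM. At 25 µM they had 43.2, 53.5 and 44.1 CPM, below every library of the 3 lowest concentrations, whose lowest was 67.8 CPM. The slope was -0.38 ± 0.09 up to 0.8 µM (adjusted p = 0.0487, edgeR) and -0.32 ± 0.05 over the whole range. With the outside-gene share as a covariate pcna had its onset at 2.5 µM.

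The histone variant gene h2az2b and mfap2, which encodes a protein of elastic microfibrils, also fell with an onset at 0.8 µM. Both had their lowest mean at 0.8 µM: over 0.008, 0.8, 2.5 and 25 µM h2az2b averaged 104 ± 1.99, 45.4 ± 17.2, 66.6 ± 6.91 and 51.2 ± 3.75 CPM (SD, n = 3 each). For mfap2 these means were 70.8 ± 14.1, 34 ± 6.08, 47 ± 3.49 and 45.7 ± 4.69 CPM. Up to 0.8 µM the slope of h2az2b was -0.50 ± 0.09, and with the covariate -0.35 (adjusted p = 0.0449, edgeR). The slope of mfap2 was -0.46 ± 0.08, and with the covariate -0.34 (adjusted p = 0.124). Without the 6 libraries above 30% outside genes the slope was -0.37 for h2az2b (adjusted p = 0.0233) and -0.42 for mfap2 (adjusted p = 0.0321).

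The receptor's own co-chaperone fkbp5 rose with an onset at 2.5 µM, and it had the largest upward slope of the named receptor targets. In the order A, B and C its libraries had 152, 113 and 98.8 CPM at 0.008 µM, 106, 68.9 and 84.7 CPM at 0.25 µM and 118, 142 and 214 CPM at 0.8 µM. They had 265, 274 and 325 CPM at 2.5 µM, 344, 409 and 529.8 CPM at 8 µM and 619.6, 634 and 651 CPM at 25 µM. Every library from 2.5 µM up lay above every library at or below 0.8 µM, and the 3 groups at 2.5, 8 and 25 µM did not overlap. The group means were 131 CPM in DMSO and then 121, 113, 88.9 and 86.4 CPM in the 4 lowest concentrations, with a slope over these 4 groups of -0.35 ± 0.13 that was not called (adjusted p = 0.726, edgeR). Over all concentrations the slope was 0.79 ± 0.09 (adjusted p = 1.1e-05), and the mean at 25 µM was 5.89 times that of the 3 lowest concentrations. From 0.25 µM up each group mean was above the one before it.

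Glutamine synthetase, glulb, which joins ammonia to glutamate, had the smallest p of all genes tested. Its libraries had 377, 399 and 421 CPM at 0.25 µM, 449, 492 and 605 CPM at 0.8 µM and 556, 591 and 638 CPM at 2.5 µM. At 8 µM they had 620.0, 806 and 806 CPM and at 25 µM 819, 870.2 and 845 CPM. From 2.5 µM up all 9 libraries lay above all 12 of the 4 lowest concentrations. The slope was 0.33 ± 0.03 (adjusted p = 4.35e-08, edgeR), and its sign and call held in all 34 settings tried.

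The cytochrome P450 gene cyp3a65, of the family that oxidizes drugs and steroids, had the lowest onset of the detoxification genes, though not the lowest midpoint. Its libraries had 242, 303 and 231 CPM at 0.25 µM, 188, 201 and 255 CPM at 0.8 µM and 161, 168 and 176 CPM at 2.5 µM. At 8 µM they had 128, 149.8 and 125 CPM and at 25 µM 123, 138 and 117 CPM, and the last 2 groups overlapped. Up to 0.25 µM its slope was -0.03 ± 0.10, and from 0.8 to 25 µM it was -0.53 ± 0.10 (adjusted p = 0.00446, edgeR). The upper slope alone was called for 122 of all genes (0.679%), of which 12 (0.0668%) fell. Legumain, lgmn, a lysosomal protease, and beta-actin, actb1, also had their onset at 2.5 µM, with means of 189 ± 15.3 and 562 ± 32.3 CPM at 25 µM against 257 ± 10.6 and 811 ± 62.5 CPM at 0.008 µM (SD, n = 3 each).

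**Figure D2:**
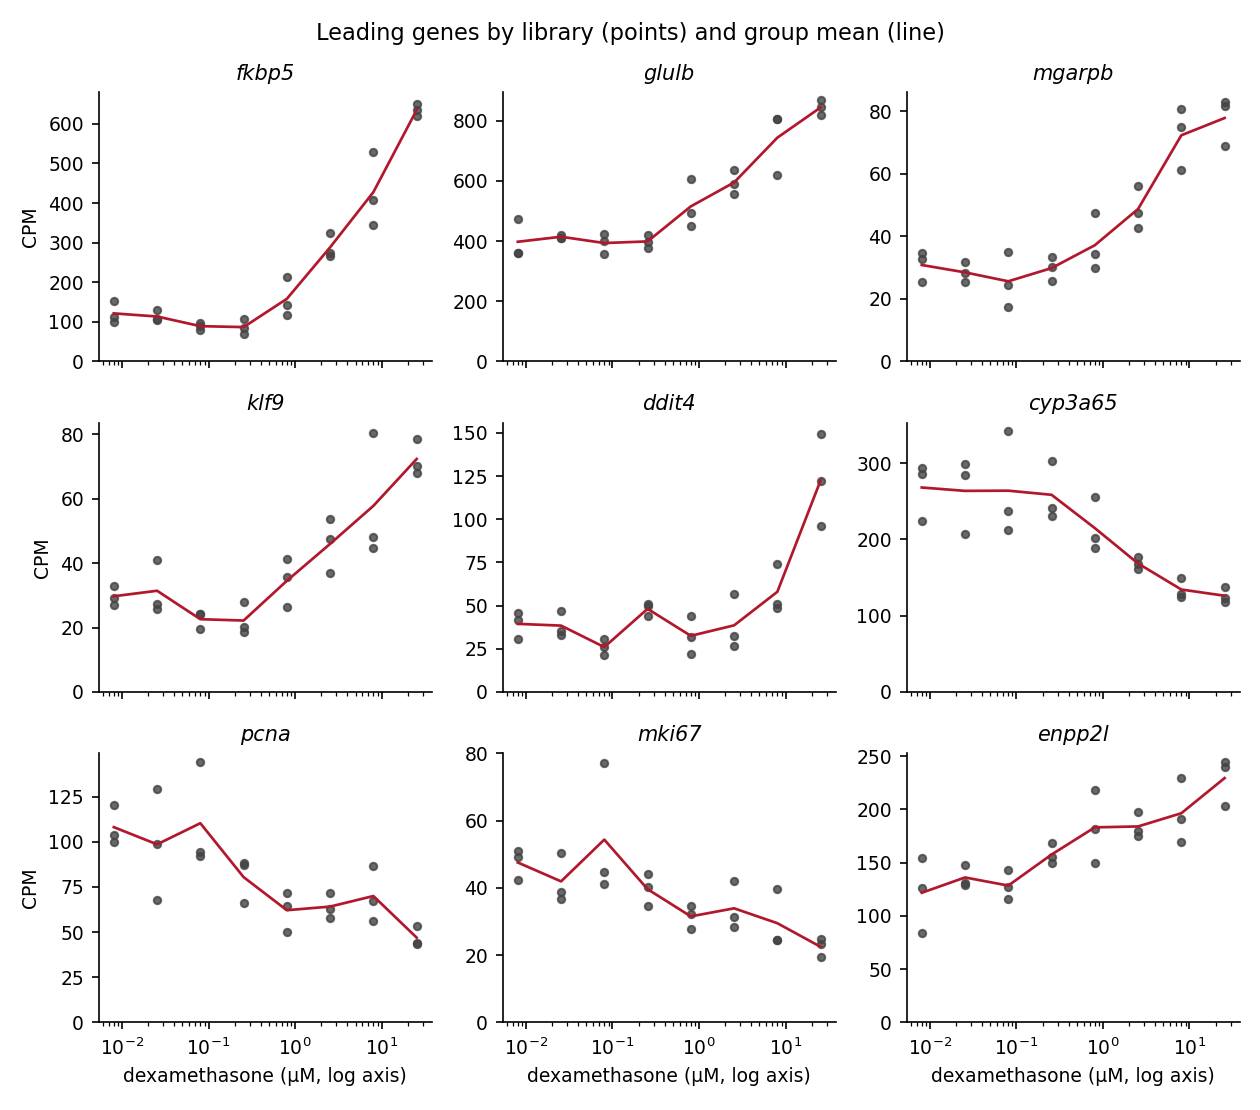
Normalized read count (CPM) of 9 genes in each of the 24 libraries (points) and as group means (line) against nominal dexamethasone concentration on a log axis. Points of fkbp5 climb without overlap from 2.5 µM, where its mean was 288 CPM, to 635 CPM at 25 µM, while ddit4 leaves its earlier range at 25 µM and pcna and cyp3a65 fall.

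How far along the range a gene had moved was described by its midpoint concentration, at which the line through the group means of log2 CPM last crossed the middle between the mean of the 3 lowest groups and the 25 µM group. Its median was 2.36 µM for the 233 rising genes (quartiles 1.2 and 4.86 µM) and 1.53 µM for the 154 falling genes (quartiles 0.546 and 5.2 µM). Below 0.8 µM lay 43 rising and 61 falling genes, and above 8 µM 37 rising and 28 falling genes. The median of the falling genes was 2.85 µM with the covariate, and 0.930 to 2.73 µM when single libraries were left out, so the order of rising and falling genes by this measure was not stable. That of the rising genes was 2 µM with the covariate.

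Genes known as direct targets of the receptor had their onset at different concentrations, and whether the concentrations at which they began to rise differed was not tested. Of 36 tested members of the target list, 8 rose and none fell across all concentrations, against 1.3% of all genes rising and 0.858% falling, with a median slope of 0.07 against -0.00 for all genes. fkbp5 had its onset at 2.5 µM and klf9, a zinc finger repressor, at 8 µM. The means of klf9 were 29.7 ± 2.99, 22.2 ± 4.94 and 72.4 ± 5.54 CPM over 0.008, 0.25 and 25 µM, beside 36.8 ± 7.4 CPM in DMSO. The leucine zipper gene tsc22d3, an anti-inflammatory mediator of glucocorticoids, the zinc finger gene zbtb16a, the kinase gene sgk2b and the lipin gene lpin1a had their onset at 25 µM. The gluconeogenic enzyme gene pck1 was called in the trend with a slope of 0.28 ± 0.07 (adjusted p = 0.0456, edgeR) but not in the fit of group means. The call was lost in 19 of 34 settings for pck1 and in 18 for lpin1a.

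The stress-induced mTOR inhibitor ddit4 had its onset at 25 µM and one of the latest midpoints of the list. It had 50.7, 49.5 and 44.1 CPM at 0.25 µM and 26.3, 32.6 and 56.7 CPM at 2.5 µM. In the 8 µM libraries it had 51.1, 74.3 and 48.5 CPM, and in the 25 µM libraries 96.1, 149.6 and 122 CPM. The 25 µM libraries alone lay above all others, and the midpoint was 9.6 µM, against 2.12 µM for fkbp5, 2.36 µM for klf9, 4.49 µM for zbtb16a and 6 µM for tsc22d3. The slope of ddit4 was 0.44 ± 0.10 (adjusted p = 0.0159, edgeR), and without the 25 µM group it was 0.16 (adjusted p = 0.629). Other members did not pass the test: per1a had a slope of 0.06 ± 0.05, per1b 0.01 ± 0.03, sgk1 0.05 ± 0.04 and the cortisol-inactivating hsd11b2 0.17 ± 0.07. The receptor genes nr3c1 and nr3c2 had slopes of -0.06 ± 0.04 and -0.05 ± 0.03 and were not called.

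Whether a gene followed the concentration differently above and below the middle was tested as the slope over 0.8 to 25 µM minus the slope over 0.008 to 0.25 µM. This difference was called for 150 genes (0.835%), of which 83 (0.462%) had the higher slope in the upper range and 67 (0.373%) in the lower range. Of the receptor targets 7 were called, all upward: fkbp5, klf9, tsc22d3, ddit4, lpin1a, the transcription factor gene cebpd and nfkbiab, which encodes an NF-kB inhibitor. For fkbp5 the upper slope was 1.32 ± 0.12 and the lower -0.35 ± 0.13, a difference of 1.67 (adjusted p = 1.87e-05, edgeR). For cebpd, not called in the trend, these were 0.51 ± 0.08 and -0.21 ± 0.08, with means of 203, 169.5 and 296 CPM over 0.008, 0.25 and 25 µM. In 81 of the 83 genes the lower slope was below 0 and the upper above 0, and in all 67 others the lower was above 0 and the upper below 0. Opposite signs are favoured by choosing genes on this difference. The lower slope alone was called for 1 of all genes (0.00557%), APY78_gr01, which was among the 83. Its lower slope was -0.40 ± 0.07 (adjusted p = 0.0108, edgeR) and its upper slope 0.31 ± 0.07 (adjusted p = 0.0125). Its difference of 0.71 was not called with the covariate (adjusted p = 0.311) or without the 6 libraries above 30% (adjusted p = 0.0781). A turn within the range was not shown for the other genes. The count of 150 depended on the setting: it was 4 with the covariate, 14 without the 6 libraries above 30% and 49 without library A at 0.8 µM. When 0.8 µM was left out of the upper range it was 13, all with the higher slope in the upper range. Other settings raised it, to 230 with DESeq2, 301 without library A at 0.025 µM and 436 without the filter on low counts. Of the 150 genes 2 were still called with the covariate, fkbp5 (1.48, adjusted p = 0.0445, edgeR) and si:dkey-5i3.5, a gene without a descriptive name (1.55, adjusted p = 4.34e-05), and cebpd was not (0.58, adjusted p = 0.0831).

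The genes called up to 0.8 µM included the 4 with an onset there, enpp2l, pcna, h2az2b and mfap2. Most of the genes called in this range had the opposite sign of slope above it. Among the 47 genes called up to 0.8 µM, 30 of the 31 rising ones had an upper slope below 0. Of the 16 falling ones 14 had an upper slope above 0. Up to 25 µM 10 of the 47 were also called with the same sign. The upper slope starts with the same 0.8 µM libraries that helped to call these genes. An opposite sign is thus favoured by the choice of genes, and a return above 0.8 µM was not tested separately. The sodium leak channel gene nalcn had 106, 111 and 98.1 CPM at 0.008 µM, 246, 185 and 151 CPM at 0.8 µM and 150.1, 137 and 123 CPM at 25 µM. The potassium channel gene kcnq3 averaged 55 ± 6.48, 87.7 ± 11.6 and 46 ± 5.98 CPM over the same concentrations (SD, n = 3 each). The transcription factor gene gata6 was highest at 0.25 µM, with 79.1 ± 9.07 CPM against 43.3 ± 10.1 CPM at 0.008 µM. Other named rises were hs6st3b, a heparan sulfate sulfotransferase gene, and kcnab1a, a potassium channel subunit gene. The RNA-binding protein gene hnrnpa0b averaged 220.0 ± 32.1, 128 ± 23.2 and 176 ± 19 CPM over 0.008, 0.8 and 25 µM, and and1, an actinodin gene of the fin folds, had 168 ± 16.3, 94.8 ± 16.5 and 109 ± 19.3 CPM (SD, n = 3 each).

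The outside-gene share moved with these 47 genes, with 28.8 to 33.6% at 0.8 µM against 25.8 to 27.7% at 0.008 µM. With that share as a covariate 8 genes were called up to 0.8 µM, 4 of them among the 47, and nalcn had a slope of 0.25 (adjusted p = 0.0703, edgeR) in place of 0.38. Without the 6 libraries above 30% 23 genes were called, 19 of them among the 47, and nalcn had a slope of 0.28 (adjusted p = 0.0477). The slopes of gata6, hs6st3b, kcnab1a and and1 up to 0.8 µM were called in neither setting. Those of kcnq3 and hnrnpa0b were called without the 6 libraries (adjusted p = 0.0493 and 0.0233) but not with the covariate (adjusted p = 0.163 and 0.124). Without library A at 0.8 µM, which had the highest share, 7 genes were called, and without A at 0.025 µM 237 were. The 1 gene called up to 0.25 µM, APY78_gr01, fell there by 0.40 for each log10 unit and rose over the whole range by 0.26 ± 0.06. No gene was called up to 0.25 µM with the covariate.

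**Figure D3:**
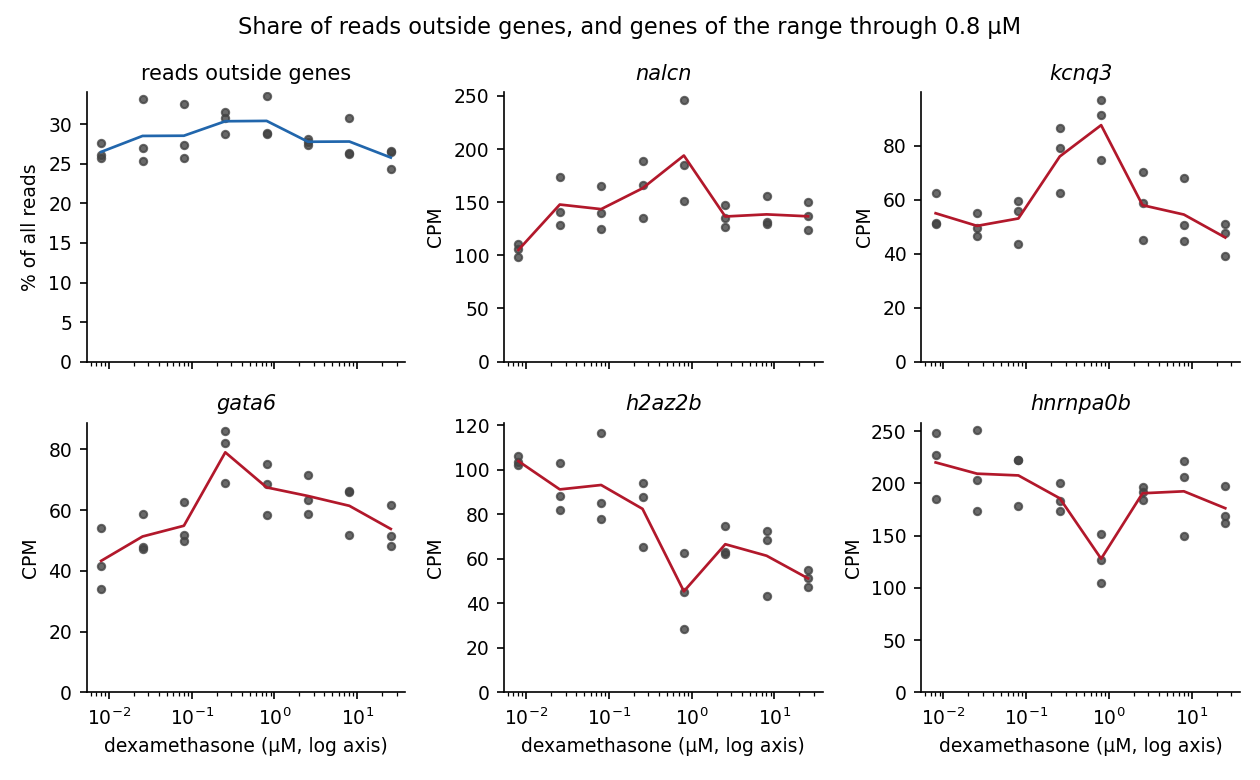
Share of reads outside counted genes (first panel, % of all reads) and CPM of 5 genes called in the range up to 0.8 µM, for each of the 24 libraries (points) and as group means (lines), against nominal dexamethasone concentration on a log axis. The share is highest at 0.25 and 0.8 µM with means of 30.4%, where nalcn, kcnq3 and gata6 are high, and h2az2b and hnrnpa0b are lowest at 0.8 µM.

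Some genes of ammonia, amino acid and glucose metabolism rose, while most members of these lists did not pass the test, against 1.3% rising and 0.858% falling among all genes. Of 26 tested genes of glutamine and ammonia handling 5 rose and none fell, and 4 of them had their onset at or below 8 µM. Besides glulb these were its paralog glula, the amino acid transporter slc7a8a and the ammonium transporter rhcga, and the glutaminase gls2a had its onset at 25 µM. The midpoints of the 5 lay between 0.828 and 2.16 µM. That of rhcga was 1.53 µM with the outside-gene share as a covariate, but 8.78 µM without the libraries of high outside-gene share. Without those libraries glulb, glula and slc7a8a had midpoints of 2.08, 1.78 and 1.84 µM. Reads of the glutamine synthetase paralogs may be split between them where their 3′ ends are alike. Of 39 genes of gluconeogenesis and amino acid catabolism 5 rose and none fell, led by the mitochondrial carboxykinase pck2 with 298 ± 27.3 CPM at 25 µM against 194 ± 9.28 CPM at 0.008 µM (SD, n = 3 each). The others were mat2ab, which makes S-adenosylmethionine, agxtb, oat and pck1, with midpoints of 2.41 to 4.23 µM. With the covariate the midpoint of pck1 was 0.748 µM. None of the 5 had an onset below 25 µM, and pck1 had no onset, since the fit of group means did not call it. That fit called 3 members of the list, all rising.

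Among 39 genes of glycolysis and its regulators 2 rose and none fell, pfkfb4b, which sets the level of an activator of phosphofructokinase, with a slope of 0.47 ± 0.08 and an onset at 8 µM, and the phosphofructokinase subunit gene pfklb with 0.16 ± 0.04 and an onset at 25 µM. A further 6 genes of this list, aldoaa, pfkma, pkmb, pklr, pgk1 and gapdh, had a slope that was higher in the upper than in the lower range without being called in the trend. None of the 6 was among the genes for which that difference was still called with the covariate. Among all genes 1.3% rose and 0.858% fell in the trend, and 0.462% were called with the higher slope in the upper range. Lipid genes were mixed. The lipid droplet gene pnpla3 rose from the range up to 8 µM, with 45.1 ± 2.62, 85.4 ± 3.19 and 97 ± 8.57 CPM over 0.25, 8 and 25 µM (SD, n = 3 each). The triglyceride synthesis gene dgat2 and lpin1a rose and the fatty acid transporter cd36 fell, each with an onset at 25 µM, among 35 tested lipid genes. Of 22 genes of gut lipid and bile acid handling none rose and 2 fell, the apolipoprotein apom with an onset at 8 µM and the bile acid binding protein fabp6 at 25 µM.

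Signalling genes of growth and of the clock rose in part, against 1.3% rising and 0.858% falling among all genes. The S6 kinase gene rps6kb1a rose with an onset at 8 µM, with 115, 133 and 92.5 CPM at 0.008 µM and 174, 232 and 173 CPM at 8 µM. At 25 µM its libraries had 241, 317 and 206 CPM. The translation repressor gene eif4ebp3l had its onset at 8 µM, and eif4ebp1 and ddit4 had theirs at 25 µM, so that 4 of 22 genes of the mTOR list rose and none fell. Of 30 genes of insulin and IGF signalling 6 rose and none fell. Only the growth hormone receptor gene ghrb had an onset below 25 µM, at 8 µM. It averaged 11.8 ± 2.5, 21.3 ± 3.03 and 15.5 ± 3.4 CPM over 0.008, 2.5 and 25 µM (SD, n = 3 each). The growth factor gene igf2b, the insulin receptor adaptors grb10a and grb10b, the transcription factor gene foxo1a and the kinase subunit gene pik3r1 followed at 25 µM. Of 31 clock genes 3 rose and none fell: hlfa with a midpoint of 0.327 µM and an onset at 8 µM, tefb with 6.35 µM and npas2 with 11 µM, both with an onset at 25 µM. Of 35 genes of muscle atrophy and autophagy 5 rose and none fell: ankrd1b, a stretch-responsive muscle gene, with an onset at 8 µM, and ulk2, xirp2a, zfand5b and foxo1a at 25 µM. The ubiquitin ligase genes fbxo32 and trim63a, the usual markers of atrophy, had slopes of 0.28 and 0.14 and did not pass the test.

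Genes of cell division fell in part, most of those called with an onset at 25 µM, while the medians of their lists were already below 0 at 0.8 µM. Of 43 tested genes of DNA replication 10 fell and none rose, against 0.858% of all genes falling, and 42 slopes were below 0, with a median of -0.18. After pcna at 0.8 µM the other 9 had their onset at 25 µM: the helicase subunit genes mcm2, mcm3, mcm4 and mcm6, the nucleotide supply genes tk1, rrm1 and rrm2, the ligase gene lig1 and uhrf1, which guides DNA methylation. The largest slope was that of thymidine kinase tk1, -0.50 ± 0.11 (adjusted p = 0.00452, edgeR), with 2.03, 2.58 and 0 CPM at 25 µM, so its size is uncertain. Of 48 genes of mitosis 9 fell and none rose, with a median slope of -0.20 and 46 slopes below 0. The proliferation marker mki67 and the cyclin gene ccnb3 had their onset at 8 µM, and tpx2, incenp, hmgb2a, nusap1, kpna2, ccna2 and birc5a at 25 µM. For mki67 the libraries had 51, 49.2 and 42.4 CPM at 0.008 µM and 24.4, 24.6 and 39.6 CPM at 8 µM. At 25 µM they had 24.9, 19.3 and 23.2 CPM.

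The median difference of the replication list from the 3 lowest concentrations over 0.25, 0.8, 2.5, 8 and 25 µM was -0.05, -0.33, -0.27, -0.36 and -0.65 (log2), against -0.00 to -0.01 for all genes. For mitosis it was -0.02, -0.39, -0.24, -0.38 and -0.71 over the same concentrations. At 0.8 µM it was -0.25 and -0.33 for these lists with the covariate, and -0.51 and -0.54 without the 6 libraries above 30%. Lists with no member falling in the trend over all concentrations also lay below 0 at 0.8 µM. Ribosomal proteins had -0.18, and -0.08 with the covariate. The respiratory chain had -0.22, and -0.07 with the covariate, and proteasome subunits -0.19, and -0.09 with it. Without the 6 libraries above 30% these medians were -0.18, -0.20 and -0.23. At 25 µM the 3 lists had medians of 0.02, 0.04 and -0.10, and of -0.05, -0.06 and -0.20 with the covariate. Among their 81, 98 and 37 tested genes 1 was called in the trend, cox7a2l, which rose, against 2.16% of all genes called. Up to 0.8, 2.5 and 8 µM 1 gene of the respiratory chain list was called in each range, and it fell. Among all genes 0.0891, 0.0557 and 0.228% fell in these ranges. In the fit up to 25 µM 3 genes of that list rose and none fell, against 1.38 and 0.991% of all genes.

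**Figure D4:**
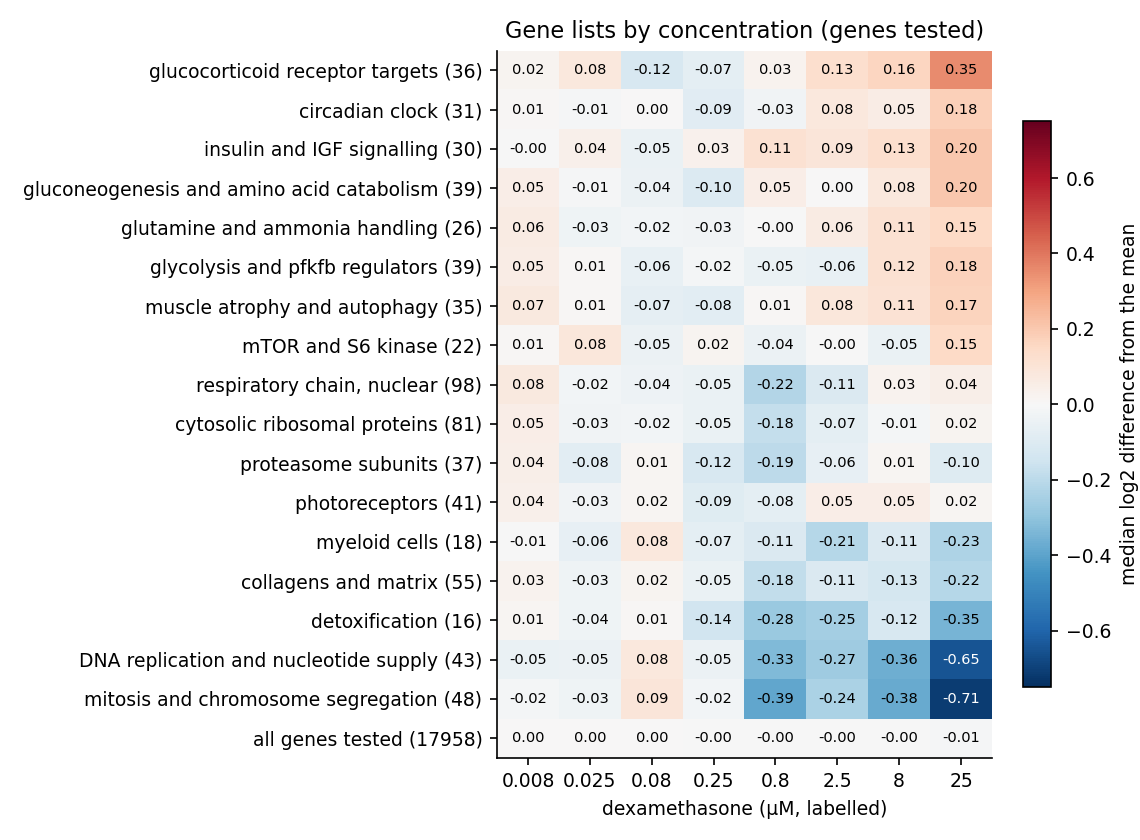
Median log2 difference of each gene list at each labelled concentration from the mean of the 3 lowest concentrations, with the number of genes tested in brackets, red for higher and blue for lower. Mitosis and DNA replication reach -0.71 and -0.65 at 25 µM and receptor targets 0.35, while ribosomal proteins and the respiratory chain are lowest at 0.8 µM and near 0 at 25 µM.

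Detoxification genes fell over a broad stretch of the range. Of 16 tested members 6 fell and none rose, against 0.858% falling and 1.3% rising among all genes, with a median slope of -0.11. Besides cyp3a65, with an onset at 2.5 µM and a midpoint of 1.76 µM, these were ugdh, which makes the sugar for glucuronide conjugation, the glutathione transferase gene gstp1, the carboxylesterase gene ces3 and the efflux pump gene abcc2, with onsets at 8 µM and midpoints of 0.457 to 0.885 µM, and the microsomal transferase gene mgst3b at 25 µM. Over 0.008, 0.8 and 25 µM gstp1 averaged 430.1 ± 78.6, 287 ± 62.6 and 240.1 ± 18.7 CPM (SD, n = 3 each). The gene of the xenobiotic receptor that controls many of these, nr1i2, had a slope of -0.04 and did not pass the test.

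**Figure D5:**
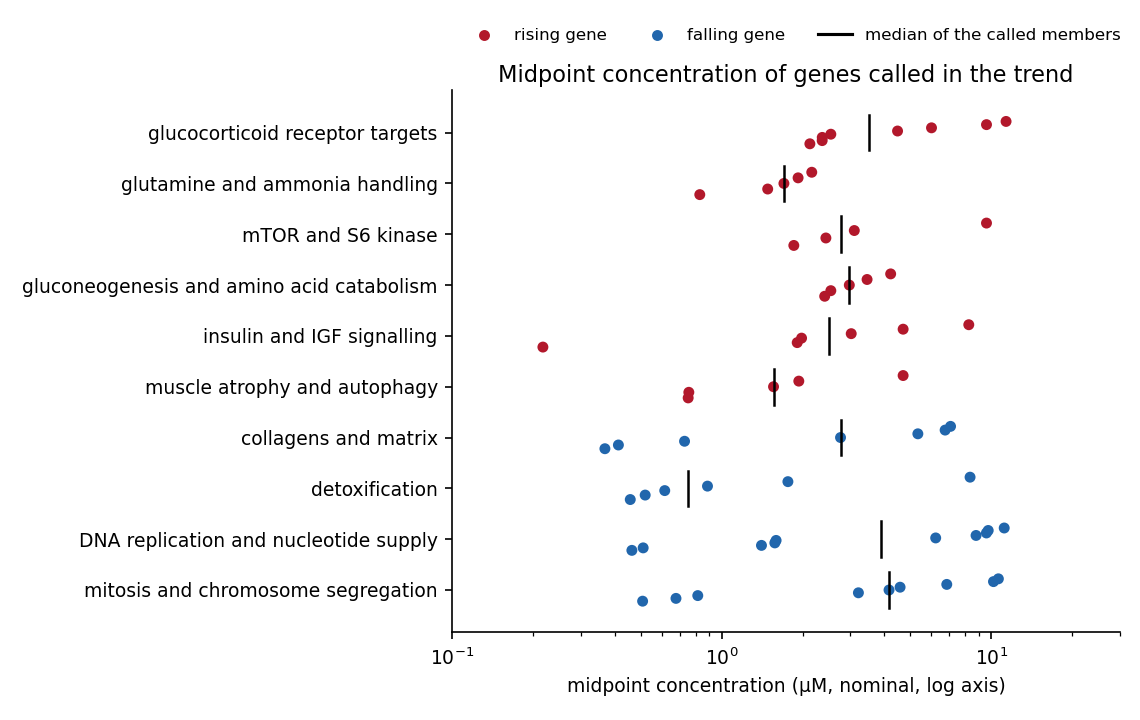
Midpoint concentration (µM, log axis) of each list member called in the trend over all 8 concentrations, red for rising and blue for falling genes, with a black line at the median of the called members of a list. Points of detoxification genes gather between 0.457 and 0.885 µM with 2 later, and those of receptor targets run from 2.12 to 11.4 µM. The midpoints shown are those without the covariate.

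Among matrix and tissue genes few members were called, beside 1.3% rising and 0.858% falling among all genes. Of 55 genes of collagens and matrix 7 fell and none rose, with a median slope of -0.06. Type I collagen col1a2 had its onset at 8 µM, with 893 ± 65.9 CPM at 25 µM against 1239.5 ± 31.7 CPM at 0.008 µM (SD, n = 3 each). The genes col1a1a, col1a1b, col11a1b, col12a1a, dcn and mmp2 followed at 25 µM. Of 41 photoreceptor genes 3 fell and 1 rose: the calcium sensor gene rcvrn2 fell and retinoschisin rs1a rose with an onset at 8 µM, and the cone opsin genes opn1sw1 and opn1sw2 fell at 25 µM. The slope of rcvrn2 was -0.22 ± 0.03 and that of rs1a 0.23 ± 0.03 (adjusted p = 5.35e-06 for both, edgeR). Of 43 liver, complement and coagulation genes cp, fga and c7b rose and ahsg1 fell.

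In some further lists a single member was called: the coactivator gene ncoa3 (0.10 ± 0.03) and insig1, a brake on cholesterol synthesis (0.20 ± 0.05), rose. The embryonic globin gene hbbe1.1 (-0.18 ± 0.05), the peptide transporter gene tap1 (-0.40 ± 0.11), the glial fatty acid binding gene fabp7a (-0.15 ± 0.04) and the immediate early gene klf2b (-0.26 ± 0.07) fell. Of the listed chaperones of the receptor fkbp5 was the only one called, and rhcga the only one of 20 ionocyte genes. No member was called in the trend among 47 sarcomere, 45 cilia, 28 neuronal, 27 inflammation, 25 skin, 21 bone and cartilage, 19 lens, 18 myeloid and 10 lymphoid genes. Over these and the ribosomal and proteasome lists, 35 of 358 entries had an unadjusted p under 0.05 in edgeR, against 2054 of all 17958 genes. DESeq2 called 1 of these entries, in the skin list. Among all genes 2.16% were called in the trend with edgeR. Myeloid genes had a median slope of -0.07 with 15 of 18 slopes below 0, and lymphoid genes -0.09 with 8 of 10 below 0.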

How the data were processed

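Per the labels' protocols, the kit reads messenger RNA from its 3′ end and adds unique molecular identifiers. Per the submitters' processing notes, the tools included HTSeq 2.0.1, STAR 2.7.10a, MultiQC 1.12 and bcl2fastq 2.20.0, beside FastQC and edgeR. The genome build is not given in the sources used here, nor is whether identifiers were collapsed. The authors deposited raw counts per gene, from which everything here was computed. Of all reads 24.3 to 33.6% lay outside counted genes, 10.7 to 12% had several alignments, 7.4 to 8.77% were unaligned and 0.592 to 0.752% ambiguous, and these rows stayed out of library sizes and tests.

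Counts of the 24 libraries passed edgeR's filter on low expression (at least 10 reads in enough libraries, 15 in all), were scaled by TMM and tested with edgeR 4.0.16 in R 4.3.3 (quasi-likelihood F-test, robust, Benjamini-Hochberg over 17958 genes, threshold 0.05). The main trend fits 1 slope on log10 nominal concentration. Widening ranges and the upper minus lower slope are contrasts of 8 group means in 1 fit. Log2 CPM used a prior count of 2. The fits were tested on simulated counts of this design. Alternatives were DESeq2 1.42.0, other scaling, filters, concentration scales, ranges, a replicate block and libraries left out.

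Of 17174 LOC-numbered genes 2292 took a symbol from assembly fPimPro1.hap1.1, used for names only. Members, ranges and the 37 gene lists (1196 of 1410 spellings in the table) were chosen with earlier results of these data known. Named genes have a symbol and at least 5 CPM in the highest group mean. They are the 15 smallest p per direction of the trend, the 5 smallest per direction of the upper minus lower slope and of a range (all where it called 10 or fewer), up to 6 per direction of an onset, up to 4 per direction of a list, and 15 genes set by name. Unnamed genes passed over in the trend were 3 rising and 5 falling. Further list members and the unnamed onset genes were chosen after their values were seen. Within groups, 24 pairs of libraries differed by more than sampling noise (chi-square per degree of freedom 1.47 to 3.14).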

Additional observations from a re-analysis of the deposited data

How the results depend on the processing

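The trend over all concentrations called 365 to 527 genes in every alternative setting but those that left out a single library (264 to 440) or the 25 µM group (80), against 387 as reported. The narrower ranges moved more. Without the filter on low counts the ranges up to 0.08, 0.25, 0.8, 2.5 and 8 µM called 12, 20, 311, 172 and 257 genes, the upper minus lower slope 436, and 210 genes had an onset below 25 µM, against 104 as reported. DESeq2 called 3, 124 and 66 genes up to 0.25, 0.8 and 2.5 µM and 230 for the upper minus lower slope. Up to 0.25 µM, DESeq2 size factors, a minimum of 5 CPM and measured concentrations each gave 2 genes, and the covariate, the set without the 6 libraries above 30% and the difference from the 3 lowest concentrations each gave 0. With the outside-gene share as a covariate 8, 42 and 194 genes were called up to 0.8, 2.5 and 8 µM, 4 for the upper minus lower slope, 177 had an onset below 25 µM, and the median midpoint of falling genes was 2.85 µM. Without the 6 libraries 23 and 111 genes were called up to 0.8 and 2.5 µM and 14 for the upper minus lower slope. In the fit of all 24 libraries the upper minus lower slope gave 13 when 0.8 µM was left out of it, against 150 as reported. Differences from the 3 lowest concentrations called 68 genes at 8 µM, and the onset rule built on them gave 60 genes below 25 µM.

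Leaving out single libraries gave 0 to 7 genes up to 0.25 µM, 7 (without A at 0.8 µM) to 237 (without A at 0.025 µM) up to 0.8 µM, 0 (without B at 0.008 µM) to 89 (without A at 0.025 µM) up to 2.5 µM and 65 (without C at 0.008 µM) to 176 (without A at 0.025 µM) up to 8 µM. The upper minus lower slope gave 49 (without A at 0.8 µM) to 301 (without A at 0.025 µM), onsets below 25 µM numbered 64 (without C at 0.008 µM) to 145 (without A at 0.025 µM), and the falling midpoint was 0.930 (without A at 0.025 µM) to 2.73 µM (without A at 8 µM). The cause of these moves was not tested. Among the named genes called in the trend, and cebpd, no slope over all concentrations changed its sign in the settings run. For the other named genes this slope was not followed across settings. The balance of rising and falling genes turned in some settings of the narrower ranges. Up to 0.25 µM the replicate block gave 6 rising and 1 falling gene. Without C at 0.008 µM the range up to 0.8 µM gave 3 rising and 6 falling genes. Without A at 0.025 µM the range up to 8 µM gave 86 rising and 90 falling genes. The medians of the ribosomal and respiratory chain lists at 25 µM turned from above to below 0 with the covariate (-0.05 and -0.06, log2) and without the 6 libraries (-0.02 and -0.03), and the order of the rising and falling median midpoints turned with the covariate (2 µM for rising and 2.85 µM for falling genes). The midpoint settings and the list medians under the covariate and without the 6 libraries were chosen after seeing the data. Of 102 named genes 34 kept the call of their slope in every setting and 67 lost it in at least 1.

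Library letters were not taken to pair the samples, since the labels give them no meaning and not every same-letter pair deviated together: 84 such pairs had correlations of -0.069 to 0.262 in their deviations from group means, 17 of them above 0.1, although 16 of 24 libraries lay closest to their own letter, a hint from the data and not from the design. Of the 6 libraries above 30% outside genes 5 have the letter A. With the replicate block the trend called 431 genes, the ranges up to 0.25, 0.8, 2.5 and 8 µM called 7, 253, 120 and 195, the upper minus lower slope 415, and 167 genes had an onset below 25 µM.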

Other observations

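Some genes with strong slopes stand outside the lists. The mitochondrial gene mgarpb had 77.9 ± 7.86 CPM at 25 µM and 30.8 ± 4.92 CPM at 0.008 µM, and chac1, which degrades glutathione, had 325 ± 42.8 CPM at 25 µM and 131 ± 26.4 CPM at 0.008 µM (SD, n = 3 each). Both had their onset at 8 µM and midpoints of 2.16 and 2.35 µM. The kinase gene stk35 and si:dkey-5i3.5 followed the concentration in the upper range, with means of 176 and 96 CPM at 25 µM against 69 and 27.2 CPM at 0.008 µM. After fkbp5, the named genes with the largest ratio of the 25 µM mean to that of the 3 lowest concentrations were entpd2b, an enzyme of extracellular nucleotides, with 4.84 times, and tmem88bl, a transmembrane protein gene, with 3.96 times. Their levels were low, with 12.5 ± 4.24 and 22.9 ± 3.26 CPM at 25 µM against 1.91 ± 1.22 and 5.7 ± 1.71 CPM at 0.008 µM.

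A pair of unnamed genes with consecutive numbers moved in opposite directions. LOC120491271 had group means of 7.88, 4.4, 10.5, 6.33, 16.6, 23.5, 35 and 38.8 CPM from the lowest to the highest concentration, with a slope of 0.88 ± 0.10. LOC120491272 had 83.5, 52.2, 68.1, 44.1, 34.8, 19, 24.1 and 14 CPM, with a slope of -0.68 ± 0.09. Both had their onset at 2.5 µM, and whether reads are shared between them was not tested.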
